A study of Drosophila melanogaster with 14 samples.

Results

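Glial genes led by the homeobox gene repo were followed in BG3 (ML-DmBG3-c2), a Drosophila cell line of larval central nervous system origin, after RNA interference against subunits of Polycomb Repressive Complex 1 (PRC1). The set holds 6 genes (repo, axo, Nrg, nrv1, nrv2 and kon), found by symbol among the 7624 genes of the authors' deposited table. Total RNA depleted of ribosomal RNA came from cells given double-stranded RNA against Polyhomeotic (labelled Ph, 3 libraries), Sex combs extra (Sce, 3 libraries) or Polycomb (Pc, 2 libraries), and from mock-treated cells (Mock, 6 libraries). All groups share the same cultured line and insulin-supplemented medium. The words rose and fell are used only where the authors' q-value, their p-value corrected over many genes, was under 0.05. The values were the authors' mean signal of each group, so no spread between libraries stands beside them, and depth per library is unknown.

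Glia insulate, feed and clear debris around neurons. In flies the transcription factor gcm starts the glial programme and switches on repo, whose homeodomain protein is kept in nearly all glia outside the midline and is needed for their differentiation. PRC1 is a chromatin complex that holds developmental genes in a silent state, partly through ubiquitination of histone H2A by Sce and partly through binding of methylated histone H3 by Pc. The genes axo, Nrg, nrv2 and kon act at glial surfaces and junctions, though not in glia alone. The remaining gene, nrv1, is not on the glial marker list used below. The protein of axo (axotactin) is secreted by glia and is related to neurexins. Neuroglian, encoded by Nrg, is the fly L1-type adhesion molecule and a part of septate junctions, the seals between insulating cells. The genes nrv1 and nrv2 encode beta subunits of the sodium pump, and kon (kon-tiki) encodes a transmembrane proteoglycan related to mammalian NG2 that acts in muscle attachment and in glial growth.

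The RNA of the targeted genes was examined as a check of the labels. By the authors' deposited table the targeted genes ph-p, ph-d, Sce and Pc stood between 8.09 and 27.0 times Mock in their own group, so the RNA signal does not show the labelled depletion. Reads from the added double-stranded RNA and from the genes cannot be told apart in these means, and directions are given for each labelled group relative to Mock. The column sums of the 4 groups differed by at most 0.021%. Of the neuronal markers elav, the RNA-binding protein gene used to mark neurons, had an authors' mean of 21194 in the group labelled Ph, 16273 in Sce, 19887 in Pc and 17293 in Mock. No gene in the table had all its group means below 798.3, and all 6 genes reached that level in every group, Mock included, so none owes its place to a rise. As the RNA is bulk, fewer cells of a type and less RNA per cell cannot be told apart.

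The group labelled Ph stood above Mock for all 6 genes, and 5 of them (repo, axo, Nrg, nrv1 and nrv2) rose. Over all genes tested, 268 of 7624 rose in this comparison, 3.52%, and 0.367% fell. The ratios to Mock by the authors' deposited table ran from 2.10 to 60.2 with a median of 2.88, against a median of 1.05 over all genes. The group labelled Pc also stood above Mock for all 6, and 5 rose (repo, axo, Nrg, nrv1 and kon), where 3.04% of all genes rose and 0.144% fell. Its ratios by the authors' deposited table ran from 1.565 to 12.9, with a median of 3.74 against 1.03 over all genes. In the group labelled Sce 0 of the 6 passed the authors' q-value and 0 had an unadjusted p under 0.05, where 0.249% of all genes passed and 11.6% had such a p. Its ratios by the authors' deposited table lay between 0.633 and 3.02. With the deposited p-values adjusted by the Benjamini-Hochberg method over all genes, axo and nrv1 no longer passed with Ph (0.058 each), while repo, Nrg and nrv2 did. The p-values are deposited to 3 decimals, so rounding may decide on which side of 0.05 such near values fall. These comparisons share the Mock libraries and are therefore not independent of each other.

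The glial regulator repo had an authors' mean of 138658 in the group labelled Ph, 6081 in Sce, 13815 in Pc and 2567 in Mock. The order from high to low was thus Ph, Pc, Sce and Mock, and which neighbours in this order differ beyond their spread was not tested. In the authors' deposited table the ratio to Mock was 54.0 in the group labelled Ph (q = 0.004), and 64 genes of the table had a higher ratio. The ratio in the group labelled Pc was 5.38 (q = 0.008) by the authors' deposited table, with 154 genes higher. In the group labelled Sce it was 2.37 by the authors' deposited table (p = 0.059, q = 0.264), which did not pass. The mean in the group labelled Ph was 10.0 times that in Pc, a difference that was not tested.

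For axo the authors' mean was 61166 in the group labelled Ph, 3068 in Sce, 13123 in Pc and 1016 in Mock, the same order as for repo. Although repo gives the set its name, the ratio of axo was the higher in each of the 3 groups. By the authors' deposited table its ratios were 60.2 in Ph (q = 0.04), 3.02 in Sce (q = 0.312) and 12.9 in Pc (q = 0.005). The Mock mean was low, near the level of 798.3 that at least 1 group mean of every tabulated gene reached, so the size of these folds rests on a small denominator. The mean in the group labelled Ph was 4.66 times that in Pc.

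**Figure D1:**
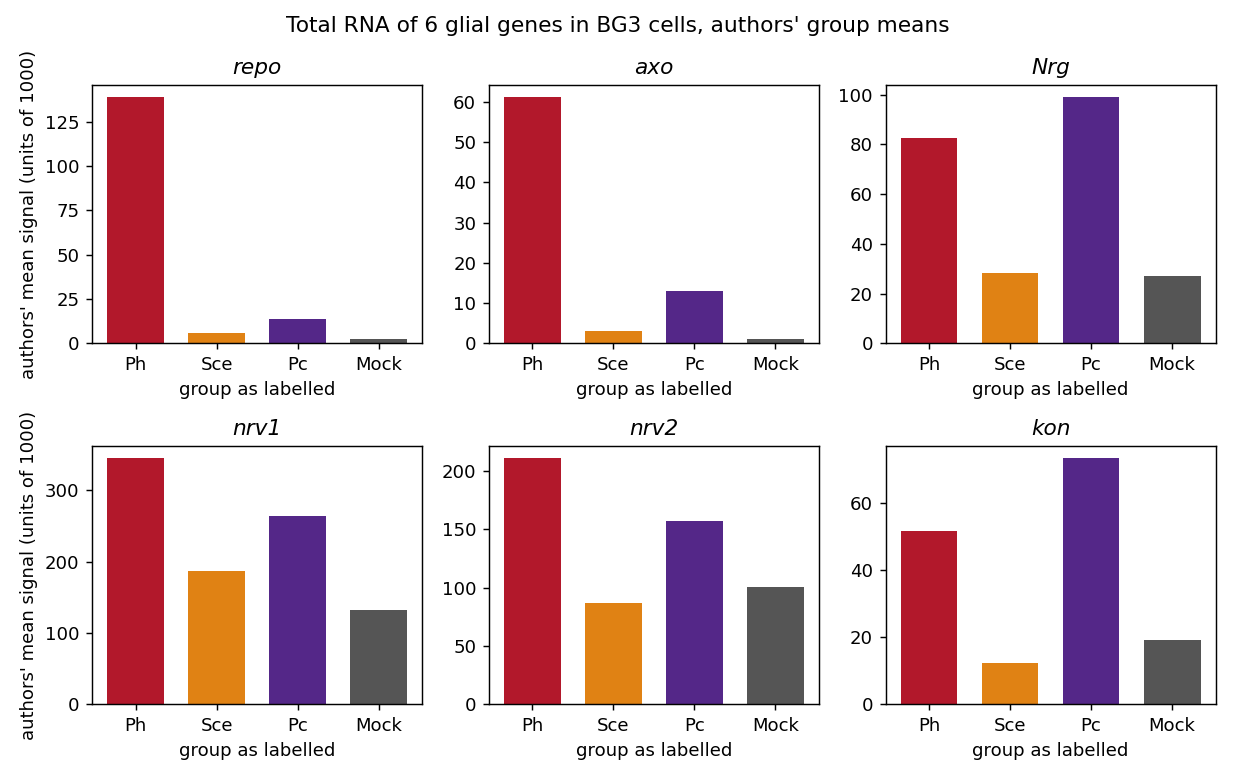
Authors' mean signal in total RNA (vertical axis, scaled as on the axis label, separate scale for each gene) of the 6 genes in the groups labelled Ph, Sce, Pc and Mock (horizontal axis). Bars are group means without error bars, since values of single libraries were not used; repo and axo stand highest with Ph, and Nrg and kon stand highest with Pc.

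The adhesion and pump genes moved by smaller factors than repo and axo with Ph. Nrg had an authors' mean of 82777 in the group labelled Ph, 28305 in Sce, 98984 in Pc and 27058 in Mock. Here Pc was highest and Sce lay next to Mock. In the authors' deposited table Nrg rose 3.06-fold with Ph (q = 0.028) and 3.66-fold with Pc (q = 0.025), and its ratio with Sce was 1.05 (q = 0.588). Neuroglian exists as a neuronal and a more widely expressed protein form, and these values are per gene and cannot separate them.

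The proteoglycan gene kon showed the same order between Pc and Ph, with authors' means of 51726 in the group labelled Ph, 12155 in Sce, 73433 in Pc and 19214 in Mock. In contrast to repo, axo, Nrg and nrv1, it stood below Mock in the group labelled Sce. It rose with Pc, with a ratio of 3.82 (q = 0.015) by the authors' deposited table. With Ph the ratio was 2.69 by the authors' deposited table (p = 0.013, q = 0.091), which did not pass. With Sce the ratio was 0.633 (q = 0.39) by the authors' deposited table. The Pc mean was 1.42 times the Ph mean for kon and 1.20 times for Nrg, and neither difference was tested.

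The sodium pump genes nrv1 and nrv2 are neighbours on the same chromosome arm and strand, with no other tabulated gene between them. For nrv1 the authors' mean was 345378 in the group labelled Ph, 187079 in Sce, 264352 in Pc and 132051 in Mock. By the authors' deposited table nrv1 rose 2.615-fold with Ph (q = 0.035) and 2.00-fold with Pc (q = 0.026), and its ratio with Sce was 1.42 (q = 0.282). The authors' mean of nrv2 was 211190 in the group labelled Ph, 86748 in Sce, 157575 in Pc and 100682 in Mock. In the authors' deposited table it rose 2.10-fold with Ph (q = 0.015), while its ratios with Pc (1.565, q = 0.058) and Sce (0.862, q = 0.403) did not pass. The pair thus kept the order Ph, Pc, then the rest, but nrv1 stood above Mock with Sce and nrv2 below it. The mean of nrv1 divided by that of nrv2 was 1.64 in Ph, 2.16 in Sce, 1.68 in Pc and 1.31 in Mock, which is a comparison of these quotients across groups and not of levels between the genes.

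The catalytic partner of these subunits was on the list of sodium pump genes, of which 3 were in the table. Atpalpha, the alpha subunit that splits ATP, had an authors' mean of 442558 in the group labelled Ph, 219245 in Sce, 379751 in Pc and 174348 in Mock. It rose 2.54-fold with Ph (q = 0.016) by the authors' deposited table, and its ratio with Pc was 2.18 (q = 0.058). With Sce its ratio was 1.26 (q = 0.392) by the authors' deposited table. All 3 tabulated pump subunits rose with Ph, at 2.10-fold to 2.615-fold by the authors' deposited table, where 3.52% of all genes rose. Only Atpalpha among the 3 is not one of the genes described in detail. As nrv1 and nrv2 were chosen with earlier results of these data known, this count is a description and not a test of enrichment.

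**Figure D2:**
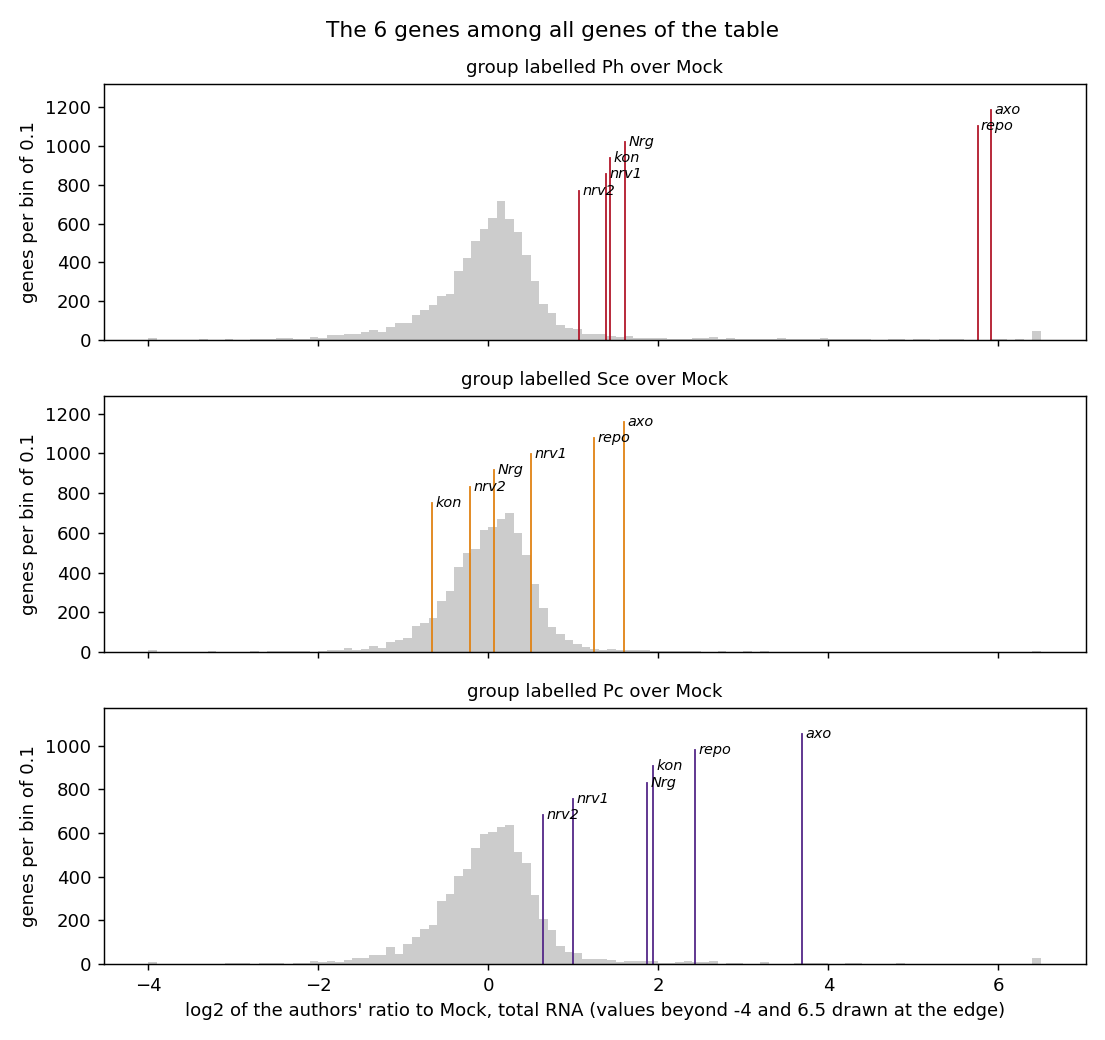
Number of genes (vertical axis, bins of 0.1) by the log2 of the authors' ratio to Mock in total RNA (horizontal axis) for the groups labelled Ph, Sce and Pc, with a labelled vertical line at each of the 6 genes. With Ph and Pc all 6 lines stand right of 0, repo and axo far out, while with Sce kon and nrv2 stand left of it.

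The deposited table holds a second set of comparisons, marked nt.gene, for Ph and Sce against Mock; what it measures is explained by no header or label, and its means were not used. In the nt.gene comparison of Ph with Mock 3 of the 6 genes rose (axo, Nrg and nrv2), where 1.69% of all genes did. The authors' deposited table gives nt.gene ratios of 42.2 for axo (q = 0.049), 6.73 for Nrg (q = 0.012) and 4.64 for nrv2 (q = 0.012). For repo the nt.gene ratio was 14.3 (p = 0.018, q = 0.127) by the authors' deposited table, and for nrv1 it was 2.00 (p = 0.005, q = 0.072). The nt.gene ratio of kon was 1.36 (q = 0.29) by the authors' deposited table. For Nrg and nrv2 the nt.gene ratio was 2.20 and 2.21 times the total RNA ratio, whereas for repo the total RNA ratio was 3.77 times the nt.gene ratio, and none of these differences was tested.

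In the nt.gene comparison of Sce with Mock 0 of the 6 genes passed the authors' q-value, where 0.118% of all genes did, and 3 had an unadjusted p under 0.05, where 9.9% of all genes did. The authors' deposited table gives nt.gene ratios of 0.358 for axo (p = 0.01, q = 0.27), 0.38 for kon (p = 0.02, q = 0.333) and 1.45 for nrv2 (p = 0.039, q = 0.382). For repo the nt.gene ratio with Sce was 0.56 (p = 0.105) by the authors' deposited table. With Sce, repo and axo therefore stood above Mock in total RNA and below Mock in nt.gene, and nrv2 the other way round, although none of these ratios passed. For Nrg and nrv1 the nt.gene ratios with Sce were 1.40 (q = 0.557) and 1.15 (q = 0.638) by the authors' deposited table.

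**Figure D3:**
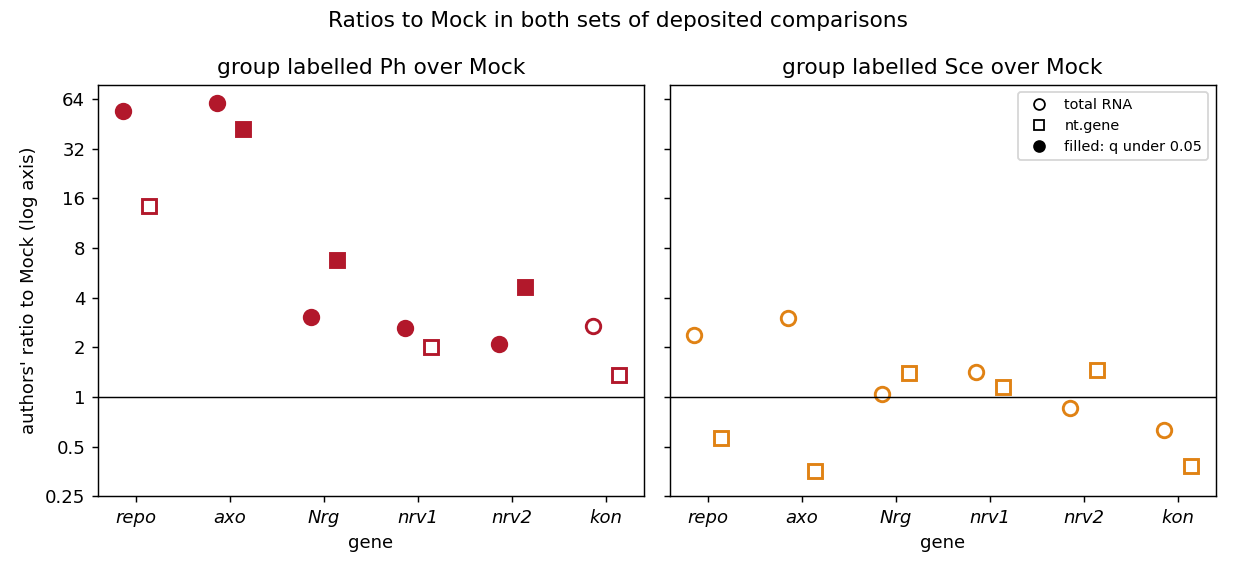
Authors' ratio to Mock (vertical axis, log scale) of the 6 genes (horizontal axis) in total RNA (circles) and nt.gene (squares), for the groups labelled Ph (left) and Sce (right), filled where the authors' q was under 0.05. With Ph all 12 ratios lie above 1, and with Sce those of repo and axo lie on opposite sides of 1 in the 2 sets.

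Other glial genes did not follow as a whole. Beside repo, axo, Nrg, nrv2 and kon, 19 genes of a glial marker list were in the table. With Ph 3 of these 19 rose and 1 fell, against 3.52% and 0.367% of all genes, and their median ratio by the authors' deposited table was 1.35 against 1.05 over all genes. Those that rose were bdl (borderless, an immunoglobulin-type adhesion gene), zyd (zydeco, a sodium, calcium and potassium exchanger of cortex glia) and the FGF receptor gene htl, at ratios of 33.0 (q = 0.014), 11.3 (q = 0.034) and 2.01 (q = 0.046) by the authors' deposited table. Of these, bdl and zyd had low signal in Mock, with authors' means of 4755 (bdl) and 2061 (zyd) in Ph and 144 and 183 in Mock, and were tabulated only because another group was high. The gene that fell was wun2, a lipid phosphatase gene, at 0.156 (q = 0.042) by the authors' deposited table.

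Of the 19 genes 12 had a ratio above 1 with Ph and 7 below 1, and 8 had an unadjusted p under 0.05, where 18.6% of all genes did. Beside the 4 that passed, these were ine, Indy, Cyp4g15 and drpr. The transporter gene ine, of the neurotransmitter carrier family, and the citrate transporter gene Indy had ratios of 14.4 and 1.86 by the authors' deposited table (p = 0.004 and q = 0.058 for each). The cytochrome P450 gene Cyp4g15 stood at 3.77 times Mock (p = 0.015, q = 0.1) by the authors' deposited table. For the engulfment receptor gene drpr the ratio was 0.388 (p = 0.035, q = 0.136) by the authors' deposited table, with authors' means of 130192 in Ph and 335892 in Mock. The gene e (ebony), whose enzyme conjugates amines to beta-alanine in glia, had a ratio of 10.2 (q = 0.303) by the authors' deposited table. The 2 early glial genes loco and pnt had ratios of 1.41 (q = 0.253) and 1.21 (q = 0.423) by the authors' deposited table. Below Mock, without passing, stood the septate junction gene Gli and the barrier receptor gene moody, at 0.439 (q = 0.351) and 0.774 (q = 0.405) by the authors' deposited table. The glutamate transporter gene Eaat1 and the glutamine synthetase gene Gs2, both used by astrocyte-like glia, had ratios of 0.674 (q = 0.444) and 0.644 (q = 0.468) by the authors' deposited table. The initiator gcm, its paralog gcm2 and the astrocyte gene alrm were not analysed here. The summed authors' means of the 19 genes were 765842 in Ph, 776067 in Sce, 726250 in Pc and 879020 in Mock. The direction of this sum with Ph turns on drpr, the gene with the highest mean of the list: without it the sums were 635650 in Ph, 540465 in Sce, 539451 in Pc and 543127 in Mock.

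With Pc 2 of the same 19 genes rose and 0 fell, where 3.04% and 0.144% of all genes did, and 5 had an unadjusted p under 0.05, against 14.4% of all genes, by the authors' deposited table. They were ine, at 3.30 times Mock (q = 0.018), and e, at 28.1 times (q = 0.004), by the authors' deposited table. For ine the mean was 2160 in Pc and 654 in Mock, and for e it was 1818 in Pc and 64.7 in Mock. Both Mock means lie below 798.3, so both genes are in the table only through groups where they were high, and of the 15 genes of the list that reached that level in Mock 0 passed with Pc. With Sce 0 of the 19 passed the authors' q-value and 1 had an unadjusted p under 0.05, where 0.249% and 11.6% of all genes did. Of the 6 genes described in detail, all except nrv1 are on the glial marker list, and the rest of that list moved in part only.

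**Figure D4:**
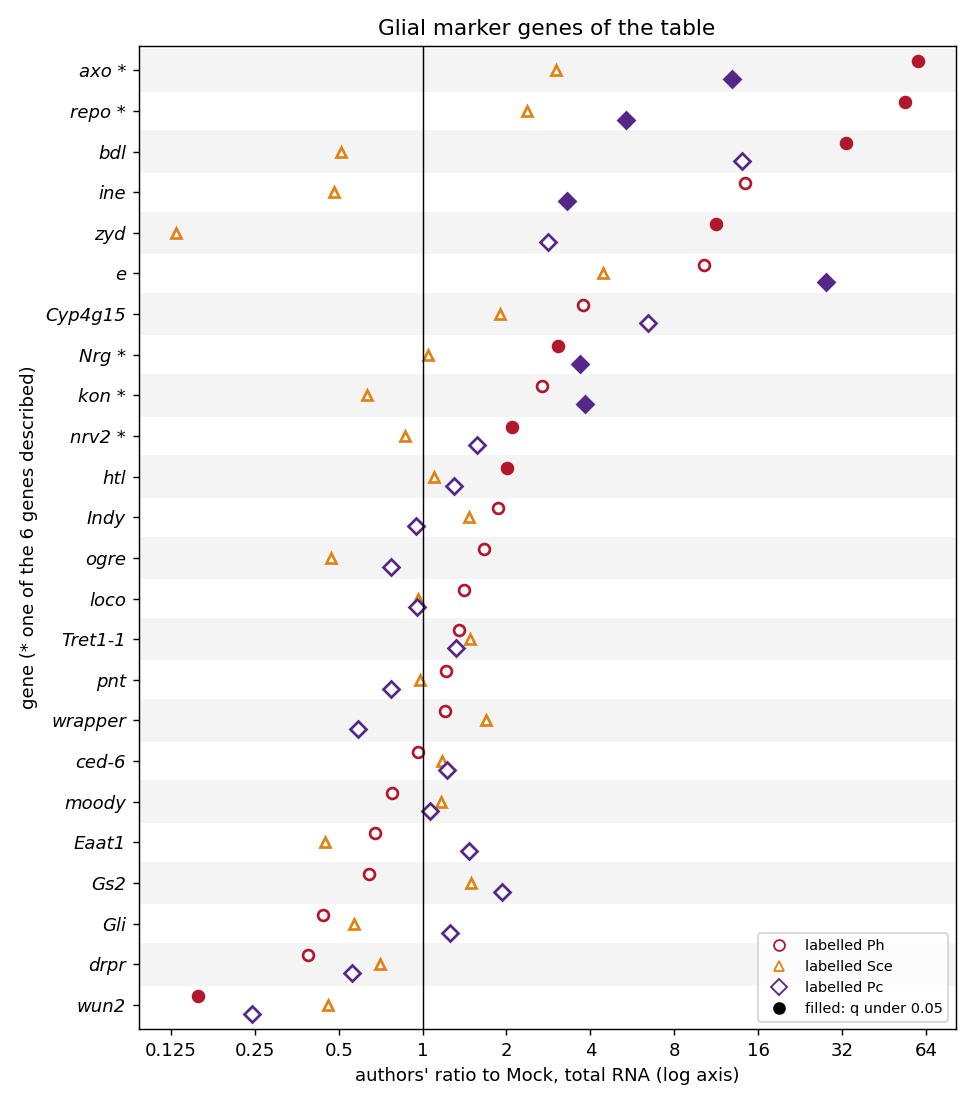
Authors' ratio to Mock in total RNA (horizontal axis, log scale) of the 24 tabulated glial markers (vertical axis, ordered by the ratio with Ph) in the groups labelled Ph (circles), Sce (triangles) and Pc (diamonds), filled where the authors' q was under 0.05. The genes described in detail carry an asterisk; axo and repo are at the top, and drpr and wun2 at the bottom.

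Few septate junction genes passed, and their count with Ph is near the share over all genes. Beside Nrg and nrv2, 24 were in the table, of which 2 rose with Ph, the pump gene Atpalpha and the scaffold gene cora (coracle), with cora at 2.24-fold (q = 0.046) by the authors' deposited table, where 3.52% of all genes rose. The median ratio of the 24 with Ph by the authors' deposited table was 1.12, against 1.05 over all genes. The neurexin gene Nrx-IV and the contactin gene Cont, whose proteins form a junction complex with Neuroglian, had ratios of 1.30 (q = 0.224) and 0.952 (q = 0.52) by the authors' deposited table. With Pc and with Sce 0 of the 24 passed the authors' q-value. Over all genes 3.04% rose and 0.144% fell with Pc, and 0.249% passed with Sce, so these counts are near the shares. Of the 24 genes, 4 with Pc and 0 with Sce had an unadjusted p under 0.05, where 14.4% and 11.6% of all genes did. The scaffold gene vari and the adhesion gene Fas3 had large ratios with Ph, 4.95 (q = 0.154) and 19.2 (q = 0.119) by the authors' deposited table, that did not pass.

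A further list set 7 other genes of the membrane skeleton (ankyrin and spectrin among them) and of cell adhesion beside Nrg. Of these the cell adhesion gene Fas2, which is not of the L1 type, rose with Ph and with Pc. Its ratios were 5.55 (q = 0.003) and 3.50 (q = 0.023) by the authors' deposited table. The ankyrin gene Ank, whose protein binds the tail of Neuroglian, stood at 1.13 times Mock with Ph (q = 0.363), 0.847 with Sce (q = 0.392) and 1.03 with Pc (q = 0.638) by the authors' deposited table. Of 8 other genes listed as partners of kon or as integrins, 3 rose with Ph, 1 with Sce and 4 with Pc, where 3.52% of all genes rose with Ph, 0.249% passed in either direction with Sce and 3.04% rose with Pc. This list was chosen with earlier results of these data known, so its counts are a description and not a test of enrichment. Grip, whose PDZ protein binds the tail of Kon in muscle, rose in each of the 3, to 8.69 times Mock with Ph (q = 0.000), 4.54 with Sce (q = 0.006) and 13.1 with Pc (q = 0.000), with q-values to 3 decimals in the authors' deposited table. The transcription factor gene pros, which acts with kon in glial growth, rose with Ph and Pc at 29.3-fold (q = 0.023) and 37.0-fold (q = 0.000) by the authors' deposited table. The integrin gene if rose with Ph and Pc at 4.89-fold (q = 0.028) and 6.33-fold (q = 0.01), and the integrin gene scb rose with Pc at 3.57-fold (q = 0.026), by the authors' deposited table.

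Markers of other cell types were read beside these changes, where 3.52% of all genes rose with Ph and 3.04% with Pc. Of 8 neuron markers 1 rose with Ph, Ace (acetylcholinesterase), with an authors' mean of 1391 in Ph and 61.4 in Mock (q = 0.027 by the authors' deposited table). The summed means of the 8 were 92772 in Ph, 94076 in Sce, 99838 in Pc and 112897 in Mock. Without the complexin gene cpx, whose protein acts in neurotransmitter release, they were 76889 in Ph, 75140 in Sce, 78466 in Pc and 65046 in Mock, so that the direction turns on 1 gene. Of 6 neural precursor markers pros and SoxN rose with Ph and Pc. Their 6 summed means were 235831 in Ph, 171741 in Sce, 209427 in Pc and 147524 in Mock. Without brat, the precursor marker of highest mean, they were 104993 in Ph, 33867 in Sce, 78750 in Pc and 37091 in Mock. The direction of this sum with Sce thus turns on 1 gene, while Ph and Pc stayed above Mock. Of 9 muscle markers twi rose with Ph, at 30.1-fold (q = 0.03) by the authors' deposited table. The muscle sums were 415410 in Ph, 544793 in Sce, 398747 in Pc and 601955 in Mock, and without the adhesion gene rst 336408 in Ph, 290542 in Sce, 223391 in Pc and 334847 in Mock. Without rst and kirre they were 204548 in Ph, 88230 in Sce, 95883 in Pc and 87666 in Mock, so the direction with Ph turns on the genes left out. Among those kept, sls had an authors' mean of 113251 in Ph and 15469 in Mock. Its ratio of 7.32 (q = 0.09) by the authors' deposited table did not pass. The Mock means of Ace, SoxN and twi were 61.4, 35.0 and 236, below 798.3, so these 3 genes too are in the table only through groups where they were high.

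Of 8 hemocyte markers 0 passed with Ph by the authors' q-value and 2 had an unadjusted p under 0.05, where 3.88% and 18.6% of all genes did. The collagen gene vkg rose 2.55-fold with Pc (q = 0.038) by the authors' deposited table. The hemocyte sums were 2256334 in Ph, 4656194 in Sce, 6887752 in Pc and 3129273 in Mock. The 2 collagen genes Cg25C and vkg carry these sums, and the other 6 markers summed to 189464 in Ph, 271166 in Sce, 216363 in Pc and 276590 in Mock. The part of other cell types in the rise of the 6 genes was not tested.

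The genes beside the 6 on the chromosome did not pass. The 2 nearest tabulated genes on each side that do not overlap one of the 6 gave 20 different genes that are not among the 6. With Ph 0 of the 20 passed the authors' q-value and 0 had an unadjusted p under 0.05, where 3.88% and 18.6% of all genes did, and their ratios by the authors' deposited table lay between 0.707 and 1.39. With Pc 0 of 20 passed and 1 had an unadjusted p under 0.05, with ratios between 0.502 and 1.52 by the authors' deposited table. Over all genes 3.04% rose and 0.144% fell with Pc, and 14.4% had such a p. By q-value the counts of 0 with Ph and with Pc are near the shares over all genes. By unadjusted p the counts are below those shares. CG7156 is not among the 20, as in the BDGP6 annotation the end of repo overlaps it on the other strand. Its ratio was 1.19 with Ph (p = 0.015, q = 0.096) and 1.14 with Pc (p = 0.045, q = 0.222) by the authors' deposited table. With CG7156 counted, 1 of 21 genes had an unadjusted p under 0.05 with Ph and 2 of 21 with Pc, and 0 passed the authors' q-value. Smaller genes lie within or against axo, Nrg and kon, and the sources used here do not say if reads were counted by strand.

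Each of the 6 genes was longer than the median gene, nrv1 only just. Their exonic lengths ran from 2195 bp (nrv1) to 9991 bp (Nrg) in the BDGP6 annotation, all above the median of 2152 bp over matched genes. RefSeq joins several older gene identifiers in axo, so the gene model behind its values may have been shorter. Matched genes were divided into 10 bins of equal size by length. Those in the bin of repo had a median log2 ratio of 0.21 with Ph, and those in the bin holding axo, Nrg and kon had 0.19. Relative to these medians the log2 ratio with Ph was 5.54 for repo, 5.72 for axo, 1.42 for Nrg, 1.22 for nrv1, 0.86 for nrv2 and 1.24 for kon. All 6 stayed above 0 with Ph and with Pc on this scale.

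The genes whose pattern was most like each of the 6 were ranked by the distance between their 3 log2 ratios to Mock in total RNA (Ph, Sce and Pc), among 4075 genes that carry a name and had signal in all groups. Nearest to repo were dac (distance 0.65), ome (0.71), Lapsyn (0.81), sev (1.16) and axo (1.32), so that axo was among the 5 nearest. The retinal determination gene dac had authors' means of 6341 in Ph, 481 in Sce, 685 in Pc and 160.0 in Mock, and the receptor kinase gene sev 123951 in Ph, 7306 in Sce, 22167 in Pc and 4592 in Mock. Nearest to axo were Npc2b (0.80) and beat-IIb (0.88). Nrg lay nearest to Ac78C (0.29) and Epac (0.44), and kon to DOR (0.14) and Ac78C (0.53), so that Nrg and kon shared a near gene. Nearest to nrv1 were Lmpt (0.09) and Klp98A (0.13), and nearest to nrv2 were Krn (0.06) and Atx-1 (0.08). The Mock means of dac, ome, Lapsyn, Npc2b, beat-IIb, Ac78C, DOR and Atx-1 lay below 798.3. These genes are in the table only through groups where they were high, and their ratios rest on small denominators. The distances rest on 4 group means and describe likeness of pattern only.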

How the data were processed

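Total RNA of BG3 cells was measured in 14 libraries, grouped by their titles. The authors deposited 1 table of 7624 genes with mean signal per group, a ratio to Mock for each RNAi group, and p-values and q-values to 3 decimals, per the file headers. The submitters' processing notes name bedtools; the sources used here do not give the aligner, build, scaling or test. A further 3 columns, nt.gene means, belong to no labelled sample and were left out.

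Calls are the authors' q-values under 0.05; no test of single libraries could be run. The labels do not say that replicates are separate cultures, so the authors' p-values may measure technical spread. Log2 ratios used a pseudocount of 1 (Python 3.11.15, pandas 2.3.3). Exonic lengths, overlaps and neighbours came from the Ensembl 115 annotation of BDGP6, to which 7517 symbols (98.6%) matched; the authors' build is unknown, so coordinates are not printed. The length, distance and Benjamini-Hochberg steps were tested on simulated data. Alternatives were other thresholds, adjustments, pseudocounts and centrings.

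The members and lists were chosen with earlier results of these data known. Named are the 6 genes, list genes past q under 0.05 or with small q, and the nearest genes by pattern. Others (drpr, Gli, moody, Eaat1, Gs2, loco, pnt, Indy, Cyp4g15, vari, Fas3, Nrx-IV, Cont, Ank, elav, cpx, brat, rst, kirre, sls, Cg25C and CG7156) were named after their values were seen. The genes bdl and zyd were matched by older identifiers. Per-gene sequences were not used here.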

Additional observations from a re-analysis of the deposited data

How the results depend on the processing

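No paired analysis was possible because the deposited columns are group means that carry no replicate number; for the same reason no library could be left out. With the deposited p-values adjusted by the Benjamini-Hochberg method over all genes, 3 of the 6 genes passed with Ph (repo, Nrg and nrv2), against 5 by the authors' q-values, and 1 of the 19 other glial markers passed, against 4. These p-values hold 3 decimals, and their rounding limits this adjustment. At an unadjusted p under 0.05, 3 of the 6 passed in nt.gene with Sce, where 9.9% of all genes did. In total RNA with Ph 8 of the 19 glial markers had such a p, where 18.6% of all genes did. In nt.gene with Ph 5 of the 6 had such a p. The share of all genes was not computed for that count, nor for the Benjamini-Hochberg counts, so neither is read as unusual. Of the 15 glial markers with a Mock mean of at least 798.3, 2 passed with Ph by the authors' q-value. The cause of these shifts in counts was not tested, apart from the last, which leaves out genes by construction. Counts of the 6 genes in total RNA with Sce and Pc were within 1.5 times under each alternative run.

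The log2 ratios of the 6 genes in 3 groups were recomputed under 6 alternatives each, of which the centring on neighbouring genes was chosen after seeing the data. Of 108 values 107 kept their direction; that of Nrg with Sce was 0.06 and turned to -0.18 when centred on genes in the same of 10 bins of exonic length. As a ratio 1 value moved by over 1.5 times, that of nrv2 with Sce, at -0.21 and at -0.87 when centred on neighbouring genes, which also took nrv2 with Ph to 0.62 from 1.07. As nrv1 and nrv2 neighbour each other and members were left out of the centring, it rests on 3 genes for each of them and on 4 for the others. The median log2 ratio of all genes was 0.07 with Ph, 0.06 with Sce and 0.05 with Pc, and that of 11 housekeeping genes was 0.16, 0.03 and 0.15 in the same order. Depth per library is unknown, so how far it limits the fold of a single gene could not be given.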
